A study of Mus musculus with 12 samples.

Results

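Established induced pluripotent stem cells (iPSCs) were set against the SSEA-1+ cells of day 16 (D16S+), the last sorted fraction of the successful route, to ask which transcripts still differed once cells carried the pluripotency program. The comparison used 2 of the 12 libraries of the series and every gene with an FPKM of at least 1 in either of them, which kept 12334 of the 24098 genes in the table. FPKM counts sequenced fragments per kilobase of transcript, scaled to the mapped fragments of the library, and differences are given as iPSCs minus D16S+ on the log2(FPKM + 1) scale unless another scale is named.

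Both libraries came from mouse embryonic fibroblasts (MEFs) in which GFP reports on Oct4, after infection with pMXs retroviruses for Oct4, Sox2, Klf4 and c-Myc (OSKM). D16S+ was collected on day 16 of OSKM induction by sorting for SSEA-1, a carbohydrate antigen found on mouse pluripotent cells, whereas the iPSCs are labelled as fully reprogrammed and were not sorted. The number of clones behind the iPSC library and their passage are not given in the sources used here, so its values may be those of 1 line. MEFs before induction (D0), the day 12 SSEA-1+ cells (D12S+), the SSEA-1- cells of day 16 (D16S-) and the D3 line of mouse embryonic stem cells (mESCs) are given beside them where named. The labels place reprogramming cells, iPSCs and mESCs in 1 feeder-free medium with serum replacement, LIF, bFGF, ascorbic acid, N-2 and CHIR99021, while the methods of the study name other media for the stem cell lines. Sorting, time in culture and cell state therefore cannot be told apart here. Each condition had 1 library, so no difference has a replicate check and no p-value is given.

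Pluripotent cells of the mouse are held in the naive state by LIF, by Wnt signalling (which CHIR99021 imitates by blocking GSK3) and by BMP, and they leave it through FGF and Nodal signals. They keep class I major histocompatibility complex (MHC) and interferon-stimulated genes low, silence the programs of body cells, and rely strongly on glycolysis. The lists below follow these programs, and all of them were read against the same background: 5.03% of the kept genes were at least 2-fold higher in iPSCs (621 genes) and 8.93% were at least 2-fold lower (1101 genes).

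Most genes differed little. The median difference was 0.00, the middle range between the 25th and 75th percentiles ran from -0.43 to 0.39, and 10612 genes (86.0%) lay within 2-fold. Past 4-fold, 65 genes (0.527%) were higher and 244 (1.98%) were lower in iPSCs. With every library set to the same total FPKM the median of all genes shifted by -0.16, and the share of higher genes among those past 2-fold was 22.9% in place of 36.1%. The D16S+ library was about 1.38 times as deep as that of the iPSCs, if the commonest ratio among 3023 low genes is that of 1 fragment in each. Any scaling of the libraries before deposit would enter this value. The cuffdiff interval had a median half-width of 100.3% of the FPKM in D16S+ and 100.1% in iPSCs, so it separated 0 higher and 4 lower genes.

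**Figure D1:**
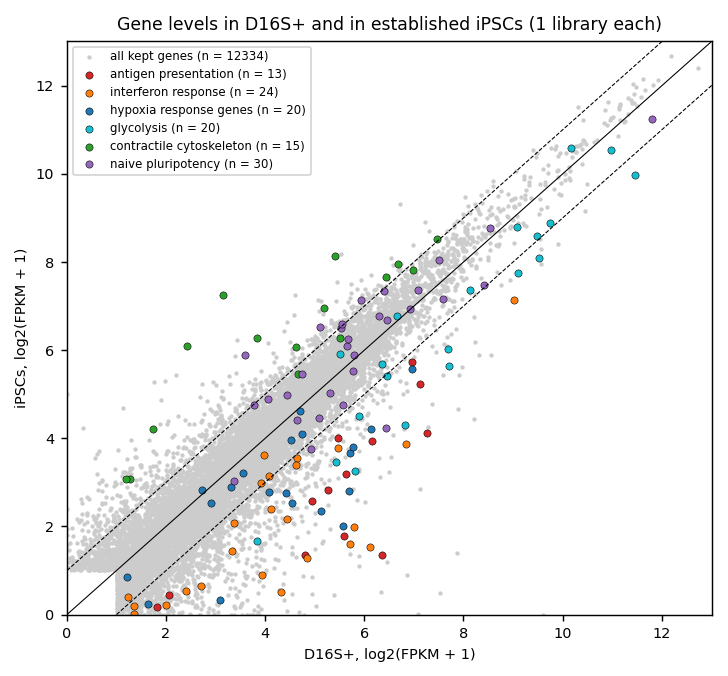
Level of each kept gene in D16S+ (horizontal axis) and iPSCs (vertical axis), both as log2(FPKM + 1), with 6 lists in colour; the solid line marks equal levels and the dashed lines 2-fold. The antigen presentation genes, with a median difference of -2.36, sit below the lower dashed line, and 12 of the 15 contractile genes sit above the upper one.

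Markers were checked before the rest. The 8 pluripotent markers summed to 4879 FPKM in D16S+ against 3672 FPKM in iPSCs, against 4236 FPKM in mESCs and 3.46 FPKM in D0. In D16S+ and iPSCs most of this sum came from Dppa5a and Utf1, and its Sox2 part also counts retroviral transcript. The 8 fibroblast markers summed to 36.0 FPKM in D16S+, 53.8 FPKM in iPSCs and 7311 FPKM in D0. Both libraries thus held the defining genes of pluripotent cells and little of the fibroblast set. The 5 stratified epithelial markers summed to 37.9 FPKM in D16S+ against 7.95 FPKM in iPSCs, and Krt5 and Trp63, the basal keratin and its regulator, were under 1 FPKM in both. The 5 leukocyte markers summed to 87.8 and 87.2 FPKM with Ptprc, the pan-leukocyte CD45 gene, listed at 0 in both, and the 4 endothelial markers to 36.3 and 30.8 FPKM. The 5 trophoblast markers summed to 74.4 FPKM in D16S+ against 35.9 FPKM in iPSCs, with Tfap2c as the largest part in both. Cdx2 and Gata3, of the same set, were higher in iPSCs. The 4 neural markers summed to 44.4 and 40.0 FPKM, and the 5 extraembryonic endoderm ones to 3.75 and 5.77 FPKM. In bulk RNA, fewer cells of a type and less RNA per cell cannot be told apart.

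Short stretches of promoter are shown for genes of 3 programs that differed as groups and have a well-known control element. Sequences are the 150 bases before the annotated start, 5′ to 3′ on the gene's strand, from RefSeq on the GRCm38.p6 build, with matches to the named element on either strand in capitals. The first set holds interferon-stimulated genes that were lower in iPSCs, with the interferon-stimulated response element (ISRE) searched as GAAA, any 2 bases and GAAA and capitalised in the first 5 genes, and Irf1 with the interferon-gamma activated site (GAS) searched as TTCNNNGAA. The windows lie at chr4:156200819-156200968 (minus strand) for Isg15, chr3:142620513-142620662 (plus strand) for Gbp2, chr3:142559894-142560043 (plus strand) for Gbp3, chr11:48871421-48871570 (minus strand) for Irgm1, chr11:58199406-58199555 (plus strand) for Igtp and chr11:53769864-53770013 (plus strand) for Irf1.
Isg15: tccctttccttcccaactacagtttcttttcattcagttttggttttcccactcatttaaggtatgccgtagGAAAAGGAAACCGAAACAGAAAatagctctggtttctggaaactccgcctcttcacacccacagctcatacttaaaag
Gbp2: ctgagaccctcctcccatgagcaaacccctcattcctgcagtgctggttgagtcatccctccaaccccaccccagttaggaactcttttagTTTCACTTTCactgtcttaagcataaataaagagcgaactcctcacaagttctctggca
Gbp3: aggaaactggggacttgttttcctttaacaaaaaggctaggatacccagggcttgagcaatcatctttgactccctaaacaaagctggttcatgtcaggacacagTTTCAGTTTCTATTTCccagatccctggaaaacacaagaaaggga
Irgm1: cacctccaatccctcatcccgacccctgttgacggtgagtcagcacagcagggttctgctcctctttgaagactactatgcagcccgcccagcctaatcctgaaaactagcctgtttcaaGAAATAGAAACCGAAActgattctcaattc
Igtp: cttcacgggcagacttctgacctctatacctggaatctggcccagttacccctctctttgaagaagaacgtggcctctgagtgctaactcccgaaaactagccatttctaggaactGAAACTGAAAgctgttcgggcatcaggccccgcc
Irf1: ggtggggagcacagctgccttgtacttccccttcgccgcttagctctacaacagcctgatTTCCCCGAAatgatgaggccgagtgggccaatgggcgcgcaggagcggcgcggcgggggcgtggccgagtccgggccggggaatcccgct

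The ISRE letters lay in the 250 bases before the start of 12 of the 20 kept interferon response genes found in the promoter table (60.0%) and of 3.46% of all 27025 genes there. The GAS letters were in 4 of the 20 (20%) against 8.13% of all genes, and Oas1a, Bst2 and Igtp held both. Of the 11 antigen presentation genes found, B2m and H2-T23 held the ISRE letters and Psmb8 the GAS letters. A match of letters is a description of the window and not of bound protein. Such shares, here and below, describe the lists as chosen and not the difference between the libraries.

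The second set holds genes of the hypoxia response and of glycolysis that were lower in iPSCs, with the core of the hypoxia response element (HRE) searched as ACGTG. These letters also lie inside the CACGTG E-box, as in Bnip3. The windows lie at chr7:138909507-138909656 (minus strand) for Bnip3, chr10:59323146-59323295 (plus strand) for P4ha1, chr11:120948917-120949066 (plus strand) for Slc16a3 and chrX:106186950-106187099 (plus strand) for Pgk1.
Bnip3: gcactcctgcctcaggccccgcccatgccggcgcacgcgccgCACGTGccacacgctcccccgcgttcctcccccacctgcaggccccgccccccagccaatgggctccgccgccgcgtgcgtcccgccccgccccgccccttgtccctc
P4ha1: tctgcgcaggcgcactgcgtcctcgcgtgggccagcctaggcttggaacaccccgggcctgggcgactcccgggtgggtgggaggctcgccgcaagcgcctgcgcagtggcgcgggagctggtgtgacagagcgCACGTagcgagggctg
Slc16a3: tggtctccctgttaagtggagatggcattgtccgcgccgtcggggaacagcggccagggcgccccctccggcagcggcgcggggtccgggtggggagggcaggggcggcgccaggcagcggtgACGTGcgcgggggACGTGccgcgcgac
Pgk1: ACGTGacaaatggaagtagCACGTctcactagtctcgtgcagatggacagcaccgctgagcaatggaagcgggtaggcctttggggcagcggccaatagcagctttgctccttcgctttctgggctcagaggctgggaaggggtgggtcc

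The core was present before the start of 11 of 17 hypoxia response genes (64.7%) and 9 of 19 glycolysis genes (47.4%), against 18.5% of all genes. These counts cover the whole lists, and Hk2 and Pgam1, which held the core, were not lower in iPSCs. The third set is Acta1, skeletal muscle actin, with the CArG box bound by serum response factor in capitals, at chr8:123894776-123894925 (minus strand).
Acta1: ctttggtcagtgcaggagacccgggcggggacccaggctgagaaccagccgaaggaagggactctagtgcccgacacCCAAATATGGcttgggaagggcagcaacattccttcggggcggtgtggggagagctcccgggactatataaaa

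The CArG box was found in 4 of 13 contractile genes (Acta1, Cnn2, Myl9 and Vcl) and in 1.62% of all genes. Among 13 immediate early genes, which serum response factor also controls, 1 held it in this window (Zfp36).

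The genes that make and load class I MHC were the list with the lowest median. All 13 kept genes were at least 2-fold lower in iPSCs, with a median difference of -2.36. Both libraries reached 1 FPKM for 11 of the 13, and D16S+ only for 2. Psmb8 (chromosome 17, 34334666 to 34338399, plus strand, mm9), a catalytic subunit of the immunoproteasome that cuts peptides for MHC, was at 80.6 FPKM in D16S+ against 1.57 FPKM in iPSCs, a difference of -4.99. B2m (chromosome 2, 121973422 to 121978819, plus strand), the invariant light chain of class I MHC, was at 153 FPKM in D16S+ against 16.4 FPKM in iPSCs. The peptide transporter gene Tap2 was at 27.0 FPKM against 1.54 FPKM. The heavy chain genes H2-K1 and H2-D1 went from 138 and 69.8 FPKM to 36.4 and 14.4 FPKM, although reads of such near-identical genes may have been lost when multi-locus reads were removed. Nlrc5, the transactivator of class I genes, was at 2.51 FPKM in D16S+ against 0.123 FPKM in iPSCs. The smallest difference of the list was that of Tapbp, a chaperone of peptide loading, at -1.23.

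Levels of these genes were not high in every reprogramming library. Psmb8 started at 37.3 FPKM in D0, stood at 1.40 FPKM in D3 and then at 13.7, 48.8 and 78.7 FPKM in the Thy-1- cells of day 6 and day 9 (D6T- and D9T-) and in D12S+. On the unsuccessful route, in the Thy-1+ cells of day 6 and day 9 (D6T+ and D9T+), D12S- and D16S-, its levels were 46.8, 135, 132 and 398 FPKM, and mESCs held 0.25 FPKM. For Psmb8, D16S- was the highest of the 12 libraries and mESCs the lowest, with iPSCs close to D3. The list as a whole was lowest in iPSCs. Its median log2(FPKM + 1) was 2.83 there, 3.15 in D3, 3.49 in mESCs, 5.58 in D16S+ and 7.90 in D16S-.

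Interferon-stimulated genes were lower as well. Of 24 kept genes, 20 were at least 2-fold lower in iPSCs and 0 higher, with a median of -1.83. Of the 24, 16 reached 1 FPKM in both libraries and 8 in D16S+ only. Gbp2 (chromosome 3, 142283566 to 142300972, plus strand), a guanylate-binding protein of cell-autonomous defence, was at 68.0 FPKM in D16S+ against 1.89 FPKM in iPSCs. Other GTPases of this defence followed, with Igtp at 51.3 against 2.04 FPKM, Gbp3 at 19 against 0.421 FPKM and Irgm1 at 54.7 against 2.97 FPKM. Among the regulators, Irf1 was at 114 FPKM in D16S+ against 13.6 FPKM in iPSCs and Irf7 at 16.3 against 4.24 FPKM. Irf9 and Stat2, subunits of the type I interferon complex, differed less, by -0.36 and -1.08.

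Over the 12 libraries Gbp2 ran from 0.116 FPKM in mESCs to 353 FPKM in D16S-. D0 and D3 held 12.9 and 3.78 FPKM, the 3 earlier sorted fractions of the successful route 25.3, 40.5 and 34.9 FPKM, and D6T+, D9T+ and D12S- 44.2, 65.3 and 60.5 FPKM. Both stem cell lines thus lay below every other library. The leukocyte markers given above summed to 87.8 and 87.2 FPKM in D16S+ and iPSCs, with Laptm5 higher in iPSCs and the rest together lower. Their part in the interferon difference was not tested. Isg15, a ubiquitin-like protein, kept a level of 12.8 FPKM in iPSCs after 43.5 FPKM in D16S+, whereas mESCs held 0.0744 FPKM. Bst2 (tetherin) was at 518 FPKM in D16S+, 139 FPKM in iPSCs and 77.8 FPKM in mESCs. Zbp1, a nucleic acid sensor that is no member of the list but was among the 15 lowest differences, was at 58.8 FPKM in D16S+ against 1.51 FPKM in iPSCs.

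**Figure D2:**
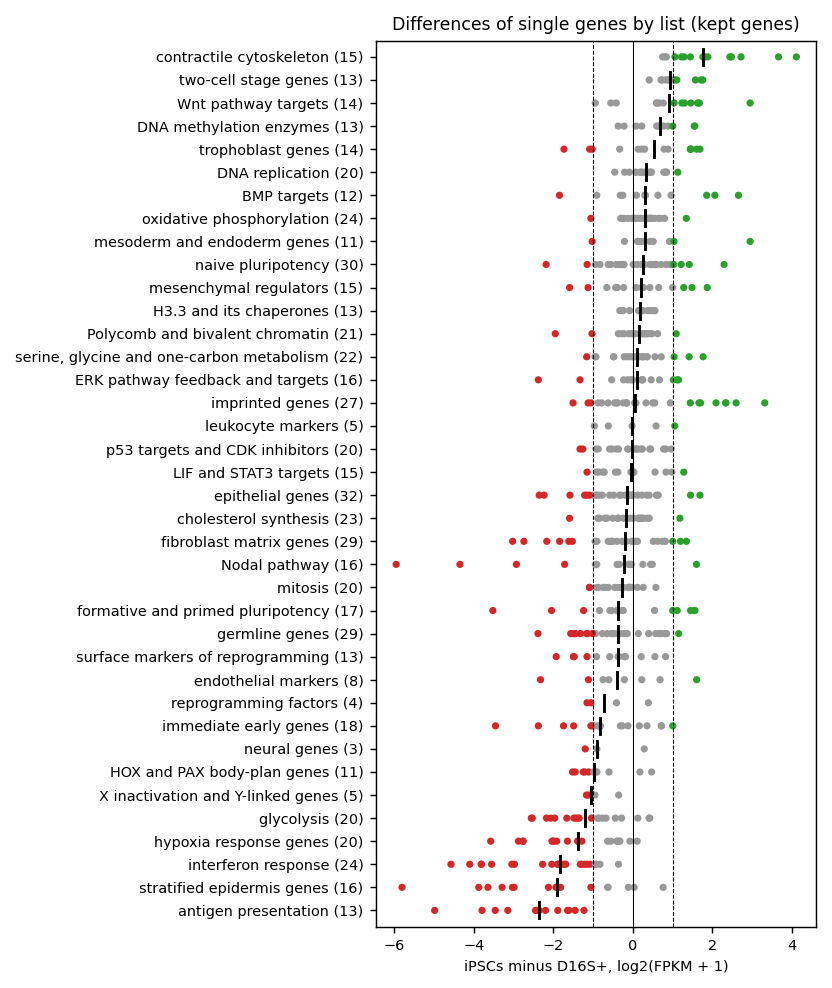
Difference of each kept gene (iPSCs minus D16S+, log2(FPKM + 1), horizontal axis) in the 38 lists, with the number of kept genes in parentheses; black bars are list medians, green points are at least 2-fold higher and red points at least 2-fold lower. Medians run from -2.36 (antigen presentation) to 1.76 (contractile cytoskeleton), against 0.00 over all kept genes.

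Genes of the hypoxia response, which low oxygen induces through HIF1, were lower in iPSCs in 12 of 20 cases and higher in 0, with a median of -1.39. Both libraries reached 1 FPKM for 17 of the 20, and D16S+ only for 3. Egln3, the prolyl hydroxylase that marks HIF for decay, was at 46.8 FPKM in D16S+ against 3.00 FPKM in iPSCs. Bnip3 (chromosome 7, 146082519 to 146101202, minus strand), a receptor for the removal of mitochondria, was at 50.6 FPKM against 6.01 FPKM. Car9, a carbonic anhydrase, was at 7.55 against 0.255 FPKM, and Vegfa, the vascular growth factor, at 51.1 against 11.7 FPKM. Ndufa4l2, a mitochondrial protein induced by HIF1 and the fifth lowest difference among named loci, was at 87.4 FPKM against 1.30 FPKM. Kdm3a and Pfkfb4, at -0.08 and 0.11, stood at the upper end of the list.

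Glycolysis gave a similar picture in 11 of 20 genes, with none at least 2-fold higher and a median of -1.20. Aldoa (chromosome 7, 133938748 to 133944265, minus strand), the aldolase of the main pathway, was at 2829 FPKM in D16S+ against 1011 FPKM in iPSCs. Pgk1 was at 208 against 48.8 FPKM, Tpi1 at 547 against 213 FPKM, Gpi1 at 733 against 271 FPKM and Pdk1, the kinase that closes pyruvate entry into mitochondria, at 42.0 against 10.00 FPKM. The lactate exporter Slc16a3 was at 113 FPKM in D16S+ against 18.6 FPKM in iPSCs. Gapdh (0.42), Hk2 (0.41) and Pgam1 (0.12) lay on the other side of 0, within 2-fold.

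The mESCs did not share these low levels. Bnip3 was at 50.4 FPKM in mESCs, Ndufa4l2 at 119 FPKM, Aldoa at 4275 FPKM, Pgk1 at 235 FPKM and Slc16a3 at 182 FPKM. The median of mESCs minus D16S+ was 0.16 for the hypoxia list and 0.42 for glycolysis, where the median of iPSCs minus D16S+ was -1.39 and -1.20. Low levels of these 5 genes were thus seen in the iPSC library and not in the mESC library, while Egln3 and Car9 were below D16S+ in both, at 10.8 and 1.30 FPKM in mESCs. Bnip3 was at 2.83 and 2.64 FPKM in D0 and D3, then at 3.93, 11.6 and 39.3 FPKM in D6T-, D9T- and D12S+, and at 4.94, 9.21, 33.7 and 34.5 FPKM in D6T+, D9T+, D12S- and D16S-. Its level in iPSCs lay between those of day 6 and day 9. As a median level, the hypoxia list stood at 2.82 in iPSCs and 2.84 in D0 on the log2 scale, and at 4.53 in D16S+.

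Few genes of oxidative phosphorylation were past 2-fold, with 1 of 24 higher and 1 lower, in a list that also holds regulators such as Ppargc1b and Esrrb. The median was 0.30 and 18 of the 24 lay above 0. The list stood at a median log2(FPKM + 1) of 7.02 in D16S+ and 7.41 in iPSCs. All kept genes whose higher library reached 100 FPKM had a median difference of 0.36. Cox5a, a subunit of complex IV, was at 95 FPKM in D16S+ against 243 FPKM in iPSCs. In serine, glycine and folate metabolism 3 of 22 genes were higher and 1 lower. Gldc, the glycine decarboxylase, was at 52.0 against 179 FPKM, and Tdh, the threonine dehydrogenase on which mouse pluripotent cells depend, at 157 against 419 FPKM. Of 23 cholesterol synthesis genes 1 was higher and 1 lower, with a median of -0.17.

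**Figure D3:**
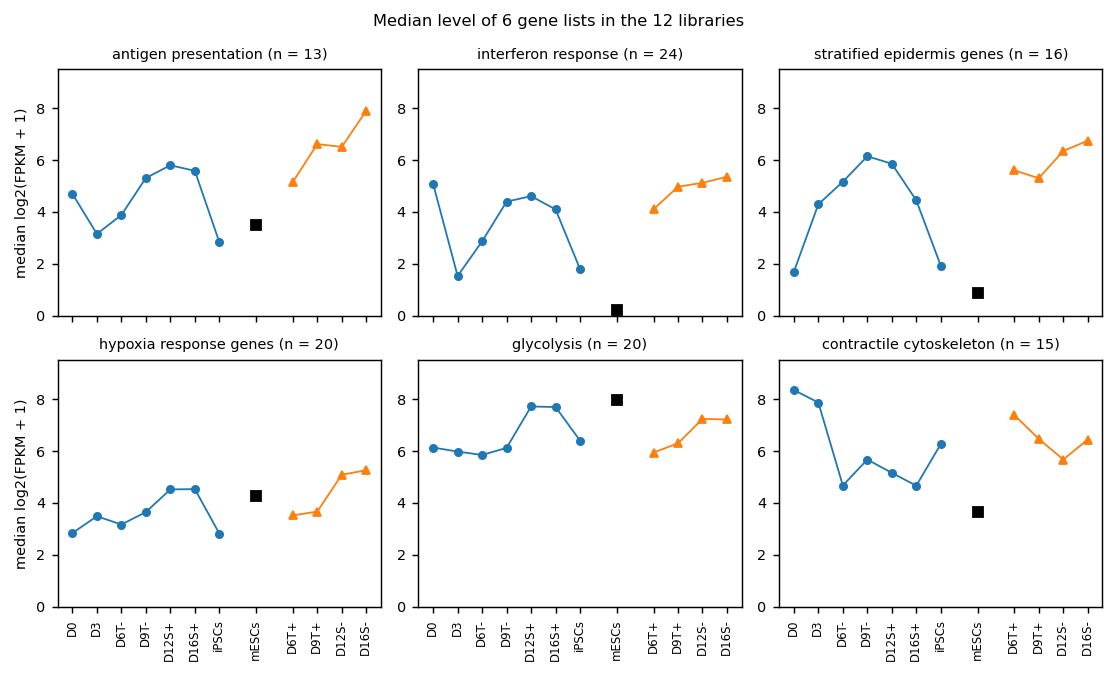
Median log2(FPKM + 1) of the kept genes of 6 lists (vertical axis) in each library (horizontal axis): blue circles are D0, D3 and the successful route to iPSCs, the black square is mESCs and orange triangles are the unsuccessful route. Glycolysis stood at 7.70 in D16S+, 6.4 in iPSCs and 7.95 in mESCs, and contractile cytoskeleton at 4.67, 6.27 and 3.64.

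In the other direction, genes of the contractile cytoskeleton were the highest list, with 12 of 15 at least 2-fold higher in iPSCs, 0 lower and a median of 1.76. Acta2 (chromosome 19, 34315580 to 34329826, minus strand), smooth muscle actin, was at 7.81 FPKM in D16S+ against 152 FPKM in iPSCs, a difference of 4.12. Acta1 (chromosome 8, 126415669 to 126418651, minus strand) was at 4.37 against 67.2 FPKM. Tagln, an actin-binding protein of smooth muscle, was at 41.5 against 280 FPKM, the myosin light chain gene Myl9 at 13.2 against 76.2 FPKM and calponin Cnn1 at 2.33 against 17.6 FPKM. The broadly expressed Flna, Actn1 and Zyx, which tie actin to junctions and adhesions, were 1.29, 1.23 and 1.76 higher. Vcl, Cald1 and Cnn2, at 0.75 to 0.84, were within 2-fold.

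Acta2 started at 675 FPKM in D0 and 575 FPKM in D3, and D6T-, D9T- and D12S+ held 14.2, 40.2 and 14.7 FPKM. Its levels in D6T+, D9T+, D12S- and D16S- were 166, 92.2, 36.8 and 71.4 FPKM, and mESCs held 10.4 FPKM. The iPSC library was thus higher than every other library after day 3 except D6T+. The median of mESCs minus D16S+ for the list was -0.61, opposite in sign to that of iPSCs. Fibroblast matrix genes showed no such shift: 3 of 29 were higher and 6 lower, with a median of -0.19. Col6a1 was at 18.2 FPKM in D16S+ against 1.36 FPKM in iPSCs, and Thbs2 at 14.8 against 1.36 FPKM, while Col1a1 was at 16.3 against 38.7 FPKM. The 8 fibroblast markers summed to 36.0 and 53.8 FPKM in these libraries, and their part in the contractile difference was not tested. Among 15 mesenchymal regulators 3 were higher, with Snai1 at 4.52 against 19.2 FPKM, and 2 lower, with Prrx1 at 2.61 against 0.197 FPKM.

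The pluripotency network itself differed little as a group. Of 30 naive pluripotency genes, 4 were at least 2-fold higher, 2 lower and 24 within 2-fold, with a median of 0.27. Nanog was at 192 FPKM in D16S+, 143 FPKM in iPSCs and 137 FPKM in mESCs. Esrrb was at 134, 165 and 195 FPKM, and Zfp42 (Rex1) at 54.2, 58.6 and 173 FPKM. Tbx3 (chromosome 5, 120120678 to 120134733, plus strand), a factor of the LIF-supported network, was at 11 FPKM in D16S+ against 57.9 FPKM in iPSCs. Nr0b1 (Dax1) was at 33.4 against 90.9 FPKM and Sall4 at 59.7 against 140.0 FPKM, whereas mESCs held 28.1 and 54.2 FPKM, close to D16S+. Dppa3 (Stella), a maternal factor that guards DNA methylation, was lower, at 85.0 against 17.9 FPKM and 5.53 FPKM in mESCs.

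The 4 reprogramming factor genes count both the endogenous and the retroviral transcript. Klf4 stood at 127 FPKM in D16S+ against 56.5 FPKM in iPSCs, Myc at 92.6 against 44.0 FPKM, Sox2 at 146 against 109 FPKM and Pou5f1 (Oct4) at 1157 against 1516 FPKM. In D16S- the same genes were at 691, 599, 318 and 2383 FPKM. Klf4 and Myc were past 2-fold, the median of the 4 genes was -0.73, and the viral share of each value was not measured.

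**Figure D4:**
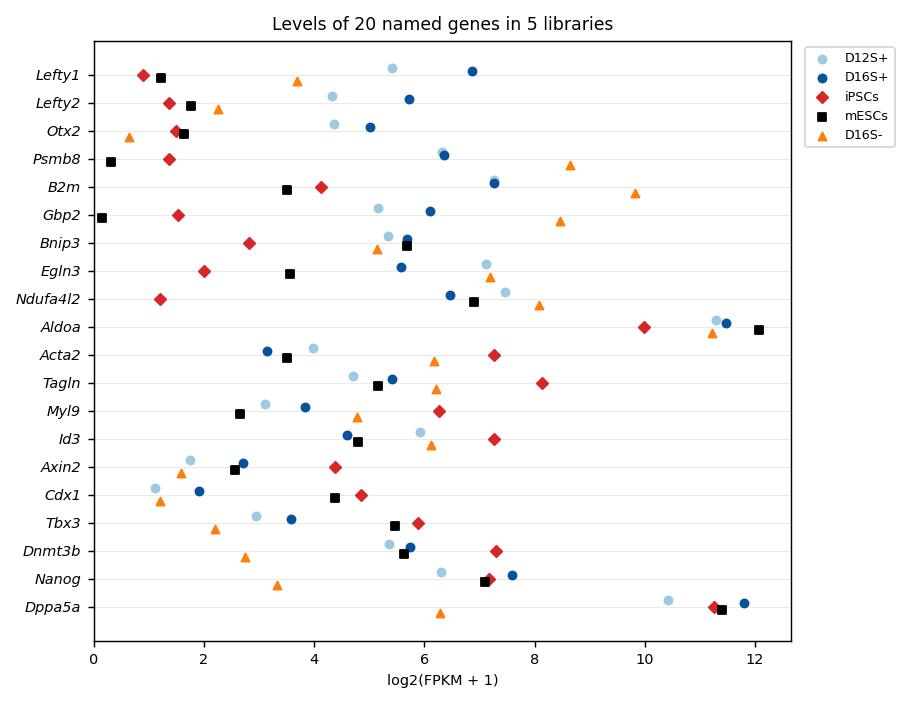
Level of 20 genes as log2(FPKM + 1) (horizontal axis) in D12S+ (light blue), D16S+ (dark blue), iPSCs (red diamonds), mESCs (black squares) and D16S- (orange triangles), 1 library each. For Lefty1, Lefty2 and Otx2 iPSCs lie beside mESCs, whereas for Bnip3 and Aldoa mESCs lie nearer to D16S+ than iPSCs do and for Acta2 and Tagln iPSCs lie above the other 4 libraries.

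Most genes of Nodal signalling, a TGF-beta pathway that drives exit from the naive state, lay below 0. The ligand Nodal was at 47.7 FPKM in D16S+ against 67.4 FPKM in iPSCs and its co-receptor Tdgf1 (Cripto) at 339 against 176 FPKM, both within 2-fold. The feedback inhibitors were far lower. Lefty1 (chromosome 1, 182865153 to 182868531, plus strand) was at 115 FPKM in D16S+ against 0.867 FPKM in iPSCs, and Lefty2 (chromosome 1, 182823239 to 182829234, plus strand) at 51.6 against 1.58 FPKM, differences of -5.96 and -4.35. Skil, a repressor of SMADs, was at 16.5 against 4.32 FPKM. Receptors and SMADs such as Acvr1b (-0.34), Smad2 (-0.05) and Foxh1 (0.25) were within 2-fold, and Pcsk6, a convertase that cuts the ligand, was 1.6 log2 units higher. In all, 4 of 16 kept genes were lower and 1 higher, with a median of -0.22. Of the 16, 12 lay below 0 and 4 above it, against 6140 of all 12334 kept genes below 0.

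Lefty1 stood at 8.91 FPKM in D9T- and 41.7 FPKM in D12S+, while D16S- held 11.9 FPKM and mESCs 1.32 FPKM. It was thus highest in D16S+ among the 12 libraries and low in both stem cell lines. Markers of the formative state that follows the naive one were partly lower too. Otx2 was at 31.3 FPKM in D16S+, 1.81 FPKM in iPSCs and 2.11 FPKM in mESCs, Fgf5 at 3.36 against 0.0559 FPKM and Pou3f1 (Oct6) at 7.35 against 2.53 FPKM. Other genes of that list went the opposite way, with Dnmt3b at 52.2 against 156 FPKM and Foxd3 at 7.14 against 22.9 FPKM, so that of 17 kept genes 5 were higher and 3 lower. Otx2 was under 1 FPKM in every library up to day 9 and in D12S- and D16S-, and reached 19.6 FPKM in D12S+.

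Wnt targets were higher in iPSCs in 7 of 14 cases and lower in 0, with a median of 0.90, and 4 of the 14 reached 1 FPKM in iPSCs only. Axin2, the feedback scaffold of the pathway, was at 5.52 FPKM in D16S+ against 19.8 FPKM in iPSCs, and 4.88 FPKM in mESCs. Cdx1, a caudal homeobox factor, was at 2.75 against 28.0 FPKM, Tcf7l1 (Tcf3), the repressor of Wnt targets, at 39.0 against 97.5 FPKM and Znrf3, which removes Frizzled receptors, at 3.06 against 8.54 FPKM. Lef1 and Tcf7 differed by -0.42 and -0.55. BMP targets were mixed, with 3 of 12 higher and 1 lower and a median of 0.31. The inhibitors of differentiation Id3 and Id1 were at 23.2 and 32.7 FPKM in D16S+ and at 152 and 140 FPKM in iPSCs, and the homeobox target Msx2 at 1.83 against 9.23 FPKM. Bmp7 was lower, at 7.6 against 1.39 FPKM.

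LIF and STAT3 targets stayed near the background, with 1 of 15 higher (Gbx2, 1.28), 1 lower (Klf4) and a median of -0.05, and Socs3 was at 79.5 FPKM in D16S+ against 46.6 FPKM in iPSCs. ERK feedback genes had 3 of 16 higher, among them Spry2 at 35.7 against 80.5 FPKM, and 2 lower. Of 18 immediate early genes, which respond within minutes to growth factors and handling, 6 were lower and 1 higher, with a median of -0.84. Fos was at 63.3 FPKM in D16S+ against 4.86 FPKM in iPSCs, Egr1 at 43.5 against 7.55 FPKM and Fosb at 4.83 against 0.738 FPKM. Since D16S+ was sorted and the iPSCs were not, handling and state cannot be told apart for these genes.

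Several epidermal genes were lower. Of 28 listed, 16 reached 1 FPKM in either library, 10 of them in both, 6 in D16S+ only and 0 in iPSCs only, so the filter favoured lower values. Of these 16, 11 were at least 2-fold lower and 0 higher with a median of -1.92, and the median over all 28 was -0.63. Aldh3a1, an aldehyde dehydrogenase of cornea and stomach, was at 79.6 FPKM in D16S+ against 0.436 FPKM in iPSCs, and Slurp1, a secreted epidermal peptide, at 13.7 FPKM and listed at 0. Fabp5, the epidermal fatty acid-binding protein, was at 155 against 18.0 FPKM, Krt17 at 28.3 against 2.69 FPKM and Anxa8 at 49.6 against 12.5 FPKM. In D16S- Aldh3a1 was at 869 FPKM and Anxa8 at 219 FPKM. Sfn (14-3-3 sigma), at 176 against 180 FPKM, and Perp, at 38.7 against 35.7 FPKM, were close in both. The stratified epithelial markers summed to 37.9 FPKM in D16S+, 7.95 FPKM in iPSCs and 85.5 FPKM in D16S-, and their part in this difference was not tested. In the wider epithelial list of 32 genes, 6 were lower (18.75%, against 8.93% of all kept genes) and 2 higher. Its median was -0.16, and 23 of the 32 lay below 0. Rab25 and Tjp3 were 2.36 and 2.23 log2 units lower, Krt8 and Krt18 were 1.69 and 1.45 higher, and Cdh1 (E-cadherin) was at 130 against 203 FPKM.

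HOX and PAX genes that pattern the body axis were at low levels. Of 25 listed, 11 reached 1 FPKM in either library, 9 of them in D16S+ only and 1 in iPSCs only, so the filter nearly fixed their direction. Of these 11, 5 were lower and 0 higher with a median of -0.99, which was -2.15 with a pseudocount of 0.1 and -0.37 over all 25. Hoxa10 was at 2.29 FPKM in D16S+, 0.146 FPKM in iPSCs and 16.1 FPKM in D0, Hoxa9 at 1.77 against 0.0144 FPKM and Hoxc6 at 1.72 against 0.146 FPKM. Among surface markers used to stage reprogramming, Cd44, high in cells that have not progressed, was at 9.28 FPKM in D16S+, 1.70 FPKM in iPSCs and 83.3 FPKM in D16S-. In this list 4 of 13 markers were lower with 0 higher, and 2 of the 13 reached 1 FPKM in D16S+ only. Of the other lineages, 2 of 11 mesoderm and endoderm genes were higher and 1 lower, and 1 of 3 kept neural genes was lower (Nes, at 15.8 against 6.32 FPKM).

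Among trophoblast genes 5 of 14 were higher and 3 lower, with a median of 0.54. Gata3 was at 2.63 against 10.0 FPKM and Cdx2 at 0.35 against 2.71 FPKM, while Tfap2c was at 65.7 against 19 FPKM. The other higher members were Krt8, Krt18 and Ascl2, the keratins of simple epithelia and an imprinted factor, which other lists hold too. Of 8 endothelial genes 2 were lower, with the progenitor antigen Cd34 at 6.21 against 0.440 FPKM, and 1 was higher. Both libraries reached 1 FPKM for 5 of the 8, and D16S+ only for 3. Of 5 kept leukocyte genes 1 was higher (Laptm5, at 19 against 40.5 FPKM) and 0 lower.

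Enzymes and cofactors of DNA methylation were partly higher, with 3 of 13 past 2-fold, 0 lower and a median of 0.68. The de novo methyltransferase Dnmt3b (chromosome 2, 153475186 to 153513466, plus strand) was at 52.2 FPKM in D16S+, 156 FPKM in iPSCs and 48.5 FPKM in mESCs. Zfp57, which protects imprints, was at 92.1 against 270 FPKM, and its partner Trim28 (Kap1) at 531 against 1065 FPKM. Dnmt3a was at 16.8 against 12.8 FPKM. Imprinted genes were widely spread about a median of 0.04, with 8 of 27 higher and 3 lower. Nnat was at 2.92 FPKM in D16S+ against 38.1 FPKM in iPSCs, Dio3 at 0.512 against 8.16 FPKM, Peg10 at 42.5 against 185 FPKM and Igf2 at 59.8 against 192 FPKM. Meg3, the maternally expressed RNA of the Dlk1 locus, was at 132 against 63.0 FPKM, Dlk1 at 0.220 against 5.16 FPKM and Grb10 at 60.6 against 20.7 FPKM.

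Of 39 germline genes in the table, 29 reached 1 FPKM in either library. Both libraries passed 21 of these, D16S+ alone 6 and iPSCs alone 2, so the filter favoured lower values. Among the 29, 9 were lower and 1 higher, with a median of -0.37, which was -0.27 over all 39. The cohesin subunits of meiosis Stag3 and Smc1b were at 17.4 and 2.74 FPKM in D16S+ and at 2.51 and 0.376 FPKM in iPSCs, and mESCs held Stag3 at 20.9 FPKM. Dazl and Tdrd12 differed by 0.70 and 0.81, within 2-fold. Of 13 genes of H3.3 and its chaperones 0 were past 2-fold in either direction, with Hira, the chaperone of active genes, at 29.3 against 32.5 FPKM and H3f3b at 205 against 232 FPKM. Polycomb genes had 1 of 21 higher (Eed, 1.09) and 2 lower, with Phf19 at 12.1 against 2.38 FPKM.

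Few cell cycle genes were past 2-fold, but the replication and mitosis lists leaned in opposite directions. DNA replication genes had 1 of 20 higher (Gins2, 1.13), 0 lower and 17 above 0, with a median of 0.34. Mitosis genes had 2 of 20 lower (Mki67 and Top2a, both at -1.09) and 17 below 0, with a median of -0.27. Over all kept genes 6194 of 12334 lay above 0. The background rose with level, however. Kept genes whose higher library was between 20 and 100 FPKM had a median of 0.17, and those of at least 100 FPKM one of 0.36. In D16S+ the replication and mitosis lists stood at a median log2(FPKM + 1) of 5.92 and 6.14. The replication median lay between these 2 backgrounds, and whether it exceeds that of genes at its level was not tested. The mitosis median lay below both. For p53 targets and CDK inhibitors 2 of 20 were lower and the median was -0.02. Cdkn2a, which encodes the barrier proteins p16 and p19, was at 80.2 against 43.4 FPKM.

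Single genes with the lowest differences included several outside the lists. Klk1, a kallikrein protease, was at 182 FPKM in D16S+, 0.408 FPKM in iPSCs and 742 FPKM in D12S+. Ly6a (Sca-1) and Ly6c1, surface antigens of 1 gene cluster on chromosome 15, were at 233 and 40.8 FPKM against 1.62 and 0.363 FPKM. S100a14 was at 31.7 against 0.136 FPKM, the carbonyl reductase Cbr2 at 24.6 against 0.0484 FPKM, the glutathione transferase Mgst1 at 29.8 against 0.373 FPKM, the arginase Arg1 at 20.7 against 0.0634 FPKM and mesothelin Msln at 138 against 6.17 FPKM. In D16S- Ly6a was at 1179.8 FPKM and Msln at 1051 FPKM.

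The highest differences outside the lists included those of Crygd, Vgf, Zfp36l3, Jph2, Pramel6, Sct and Accsl. Crygd, a lens crystallin, was at 0.249 against 17.8 FPKM, the neuropeptide precursor Vgf at 1.18 against 24.8 FPKM, the hormone secretin Sct at 9.73 against 74.5 FPKM and Pramel6, of a family expressed in early embryos, at 0.480 against 10.7 FPKM. In mESCs Vgf and Pramel6 were at 1.05 and 0.514 FPKM, beside D16S+.

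The genes past 2-fold were then followed in libraries that had no part in choosing them. Between mESCs and D12S+, which share no library with the comparison, 27.7% of the 621 genes higher in iPSCs were at least 2-fold higher in mESCs, against 9.12% of all kept genes, and 7.57% were lower. Of the 1101 genes lower in iPSCs, 55.0% were at least 2-fold lower in mESCs, against 13.6% of all kept genes, and 4.09% were higher. The median of mESCs minus D12S+ was 0.49 for the genes higher in iPSCs and -1.18 for the lower ones, against 0.04 over all kept genes. Both pairs set a stem cell line against a sorted SSEA-1+ fraction. Sorting, time in culture and cell state therefore cannot be told apart in either pair. As a median of log2(FPKM + 1), the genes lower in iPSCs stood at 2.05 in D0, 3.39 in D12S+, 3.69 in D16S- and 1.88 in mESCs. In D16S+ and iPSCs, whose difference chose them, they stood at 3.13 and 1.38.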

How the data were processed

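The members and gene lists were chosen with earlier results of these data known. Libraries were mapped to conditions by their titles, and table columns by day and marker sign, as the titles give them. The authors aligned reads to mm9 with STAR, removed reads with more than 2 mismatches or several loci, and deposited FPKM per gene with the interval of cuffdiff. Versions, annotation and library scaling were not given in the sources used here. The labels name a stranded kit and the methods a non-stranded one, so overlapping antisense genes (Xist and Tsix, Igf2r and Airn) may share reads. A further 12 columns of status words were not used. FPKM carry no fragment totals, so absolute depth is unknown and no counting interval is given.

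Differences were taken on log2(FPKM + 1) in Python 3.11.15 with pandas and numpy, for genes of at least 1 FPKM in either library, which understates the change of low genes. An FPKM of 0 is given as listed at 0, since it can be a failed estimate. With 1 library per condition no test was made, and called means at least 2-fold. Genes named are members of the 38 lists (724 genes, 721 of them in the table; the others are not analysed here), the 15 highest and 15 lowest differences among loci of at least 300 bp with a gene name, the 5 in each direction among the remaining loci, and the 5 in each direction with at least 50 FPKM. Positions are the loci of the deposited table on mm9, and of 722 named genes with a single GENCODE M1 entry 720 overlapped it. Elements were searched in the 250 bases before each start. Alternatives were the pseudocount, 2 scalings, the filter, locus length, the fold and the interval. Functions were tested on simulated data. Results for some items are not reported here.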

Additional observations from a re-analysis of the deposited data

How the results depend on the processing

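Of 250 values computed under the alternative settings, 234 stayed within 1.5-fold (0.58 log2 units for medians, and the share of genes past 2-fold for the share within it), 16 moved further and 0 called medians changed sign. Some of the 234 could hardly move. Loci of at least 300 bp kept 12330 of 12334 genes, and all 40 values there stayed. Without a filter the 2-fold counts were fixed, because a gene under 1 FPKM in both libraries cannot reach 2-fold with a pseudocount of 1. With a pseudocount of 0.1 there were 1691 lower genes, 78.9% of genes lay within 2-fold, and the medians were -2.15 for HOX and PAX genes, -2.76 for stratified epidermis genes and -2.63 for interferon response. With at least 5 FPKM in either library there were 717 lower genes and the median of mesoderm and endoderm genes was 0.92. Without a filter the medians were -0.36 for X inactivation and Y-linked genes, -0.055 for neural genes, -0.37 for HOX and PAX genes and -0.63 for stratified epidermis genes, since genes near 0 in both libraries then entered. At least 4-fold left 65 higher and 244 lower genes, for which the median of mESCs minus D12S+ was -2.57 in the lower ones, and intervals that did not overlap left 0 and 4. With every library set to the same total FPKM, 425 genes were higher and 1433 lower, in place of 621 and 1101, and the medians of imprinted genes (-0.13), ERK targets (-0.05) and serine, glycine and folate metabolism (-0.06) lay below 0, and with at least 5 FPKM that of p53 targets lay above it (0.07). No paired analysis was possible because each condition had 1 library, and for the same reason no replicate could be left out. The cuffdiff intervals come from a model and cannot show how cultures vary.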

Other observations

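Genes of the 2-cell stage, which mark a rare and transient state in stem cell cultures, were at low levels and higher in iPSCs in 5 of 13 kept cases, lower in 0, with a median of 0.94, and 4 of the 13 reached 1 FPKM in iPSCs only. Zscan4f was at 0.560, 4.27 and 0.133 FPKM in D16S+, iPSCs and mESCs in turn, and Zscan4c at 1.78, 4.81 and 0.146 FPKM. In the same order Tcstv1 was at 19.4, 37.2 and 1.07 FPKM and Usp17lc at 2.20, 8.52 and 0.548 FPKM. The mESCs were the lowest of the 3 libraries for each of these 4 genes. Zscan4 and Usp17 genes have near-identical copies, so these values are uncertain. The median of mESCs minus D16S+ over the list was -1.05.

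X inactivation and Y-linked genes gave 3 of 5 kept genes lower and 0 higher in iPSCs, with a median of -1.06, which was -0.36 over all 9 listed genes. Xist, the RNA that coats the inactive X, was at 1.5, 0.148 and 0.00749 FPKM in D16S+, iPSCs and mESCs in turn. The Y-linked demethylase Kdm5d was at 4.06, 1.25 and 0.0667 FPKM and Eif2s3y at 5.84, 4.34 and 0.909 FPKM. The sex of the embryos behind the MEFs is not given in the labels.

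Some of the largest differences of the table were at short or unnamed loci. Mir7079 was at 773 FPKM in D16S+ and listed at 0 in the other 11 libraries, and Mir8094 and Snora64 were at 13.3 and 26.6 FPKM in D16S+ and listed at 0 in iPSCs. In D16S+, iPSCs and mESCs in turn, Gm15772 was at 135, 0.0108 and 1579 FPKM, and 8430408G22Rik at 58.7, 1.15 and 0.0383 FPKM. On the other side, 2210409E12Rik was at 104, 635 and 44.9 FPKM, E130012A19Rik at 45.2, 289 and 95.6 FPKM, Gm15698 at 3.62, 42.3 and 1.36 FPKM, 2410088K16Rik at 2.39, 37.8 and 15.6 FPKM and Gm4971 at 1.45, 14.7 and 1.22 FPKM.

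Genes past 2-fold were not spread evenly over levels. Of 3539 genes whose higher library was between 1 and 5 FPKM, 4.10% were higher and 10.9% lower in iPSCs, while of 977 genes of at least 100 FPKM 9.21% were higher and 5.42% lower.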
